A study of Mus musculus with 25 samples.

Results

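The 9 genes described here encode paired immune receptors of myeloid cells, sets of cell-surface proteins of like structure in which some members activate and others inhibit the cell. Lilra5 was chosen for its rise in microglia of homozygous mice, and Lilrb4a, Pilra, Cd300a, Cd300lf, Sirpa, Cd200r1, Siglece and Clec4a3 were chosen as related activating or inhibitory receptors. Of the 9, 8 had a row among the 43411 genes of the deposited table, and all 8 were among the 12908 genes with enough counts to be tested. Lilrb4a had no row under its own identifier, so the only row at its locus is given separately under its annotated name, Gm49339.

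RNA was sequenced from microglia of 3-month-old mice, sorted from the brain without cerebellum and olfactory bulbs by FACS as CD11b+ CD45med cells, with 1 library per mouse. The Homo-cKO group held 10 Bin1flox/flox Thy1-Cre+ mice (5 females and 5 males), and the Het-cKO group held 7 Bin1flox/wt Thy1-Cre+ mice (4 females and 3 males). The WT group held 6 Bin1flox/wt Thy1-Cre- littermates (2 females and 4 males), so that every mouse carried at least 1 floxed Bin1 allele and the WT mice differed from the Het-cKO mice by the Cre transgene. The strains were B6.129S6-Bin1tm2Gcp/J and FVB/N-Tg(Thy1-cre)1Vln/J. The paper describes the deletion as specific to excitatory neurons of the forebrain, not to the microglia that were sequenced. Of 25 labelled samples, 1 WT female and 1 Het-cKO male had no column in the table.

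In paired receptor families, inhibitory members carry immunoreceptor tyrosine-based inhibitory motifs (ITIMs) in a long cytoplasmic tail, which recruit the phosphatases SHP-1, SHP-2 and SHIP. Activating members have a short tail and a charged residue in the membrane, through which they pair with an adaptor such as DAP12 or the Fc receptor gamma chain, and so signal through Syk. Microglia carry several of these receptors, and SIRPα and CD200R are known for receiving the inhibitory signals CD47 and CD200 from neurons and other cells.

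The coding sequences annotated for the members show this division in part. In a translation of the longest annotated coding sequence, scored for ITIM matches beyond the last hydrophobic segment of 19 residues, SIRPα had 3 matches, CD300a, CD300lf and LILRB4a had 2 each, and PILRα and Siglec-E had 1 each. LILRA5 had none in a tail of 28 residues, with 1 basic residue within the segment, and CD200R1 had none in a tail of 65 residues. Clec4a3 is of the opposite orientation, with its tail at the amino terminus, and had no match in the 49 residues before its segment. Among 9262 mouse proteins with such a segment, 28.3% had a match beyond it, so that a match is a description and not a working site.

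Total counts ranged from 10812969 to 16734846 per mouse, and values are given as CPM, the usual depth-scaled count, after TMM scaling of the library totals. The animal numbers of the 6 WT and 7 Het-cKO mice lay in one range (02xx) and those of the Homo-cKO mice in others (6 in 03xx and 4 in 04xx), so that homozygosity and whatever the number ranges stand for cannot be told apart. The targeted gene, Bin1, had a median of 688.6 CPM in WT, 691.1 CPM in Het-cKO and 468.6 CPM in Homo-cKO microglia. Its log2 fold change in Homo-cKO mice was -0.60 against WT (SE 0.12, adjusted p = 0.0017 by edgeR), beyond the 1.5-fold threshold. Against Het-cKO it was -0.53 (SE 0.11, adjusted p = 0.0015 by edgeR), and 8 of 10 Homo-cKO mice lay below every other mouse. Since the paper describes a deletion in neurons, this checks the labels only in part, and the cause of the fall in microglia was not tested. All 10 microglial marker genes were detected in every mouse, with a summed level of 66828 to 94634 CPM in WT and 58526 to 68676 CPM in Homo-cKO mice. In 4 Homo-cKO mice (F1, F2, M1 and M2), all of 03xx, Fos stood at 824.5 to 1459 CPM, against at most 6.999 CPM in the other 19 mice. Leaving these 4 out therefore also takes out most mice of 03xx and none of 04xx. Of 15 immediate-early genes tested, 12 were higher in Homo-cKO against WT at an adjusted p below 0.05 by edgeR, beside 5.66% of all genes. Summed over the list, they stood at 642 to 813 CPM in WT mice. In Homo-cKO mice the sum ranged from 773 to 13614.5 CPM with a median of 1108.7 CPM, so that the lowest of these mice lay within the WT range.

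Lilra5, the activating member of the set, lies on chromosome 7 (4237754 to 4243463, plus strand, GRCm38) and had no 50-base stretch of transcript, the length of 1 read, in common with any other gene. In WT mice it was measured at 5.93 and 4.84 CPM in females F1 and F2 and at 8.55, 5.66, 5.40 and 5.01 CPM in males M1 to M4, and in Het-cKO mice at 3.58 CPM at the lowest, 5.77 at the median and 8.62 at the highest. In the 10 Homo-cKO mice it ranged from 10.6 to 37.9 CPM, with a median of 22.2 CPM. Every Homo-cKO mouse stood above every WT and every Het-cKO mouse, which 52 of the 12908 genes did (0.403%), and Lilra5 was chosen on this rise. The counts behind these values were 66 to 114 reads in WT and 124 to 522 reads in Homo-cKO mice.

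**Figure D1:**
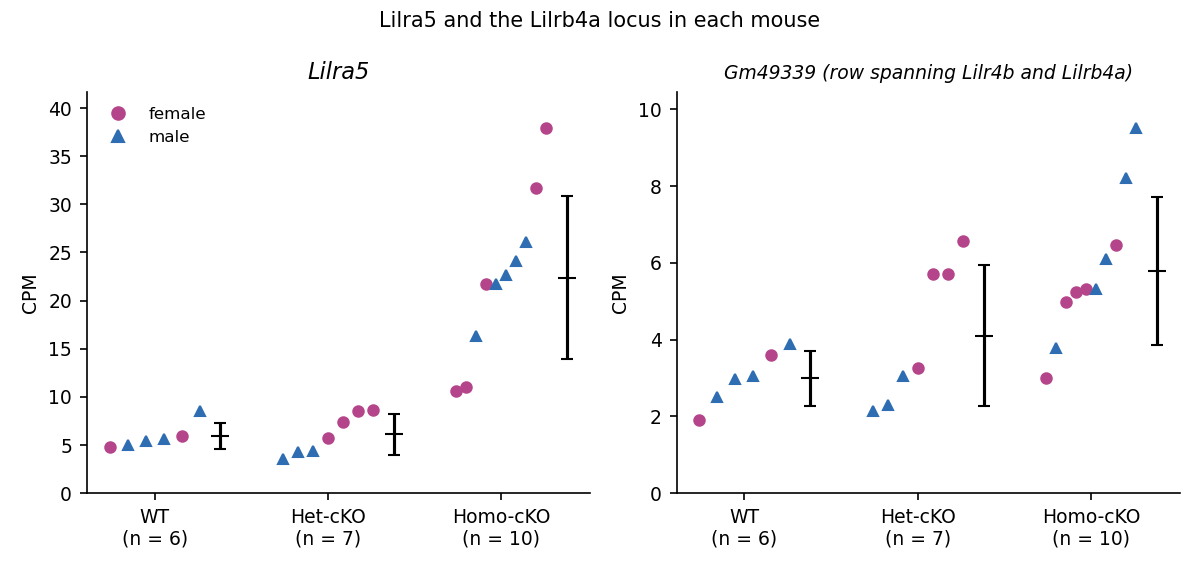
CPM of Lilra5 (left) and of the row Gm49339, which spans Lilr4b and Lilrb4a (right), in each mouse by genotype. Circles are females, triangles males, and the line with bars gives the mean and SD of the group. The 10 Homo-cKO mice lie between 10.6 and 37.9 CPM for Lilra5, above the other 13 mice, whereas the groups overlap for Gm49339.

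The log2 fold change of Lilra5 was 1.88 (SE 0.25) in Homo-cKO against WT and 1.91 (SE 0.24) in Homo-cKO against Het-cKO, a 3.69-fold and a 3.76-fold difference, given without a test because the gene was chosen on it. The Homo-cKO mice are shared between these comparisons. In Het-cKO against WT, which did not enter the choice, the log2 fold change was -0.03 (95% confidence interval -0.59 to 0.54, edgeR's quasi-likelihood test, adjusted p = 0.99). The Homo-cKO mice of both number ranges were high, at 10.6 to 31.6 CPM in the 6 mice of 03xx and 21.7 to 37.9 CPM in the 4 mice of 04xx. Leaving out the 4 mice with high Fos gave a log2 fold change of 1.95.

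Female and male Homo-cKO mice had close means of Lilra5, 22.6 ± 12.2 CPM (SD, n = 5) and 22.2 ± 3.66 CPM (SD, n = 5), and the 2 lowest and the 2 highest Homo-cKO mice were all females. In Het-cKO mice, the 4 females (5.77 to 8.62 CPM) lay above the 3 males (3.58 to 4.43 CPM). Over all genotypes the sexes differed by a log2 fold change of 0.21 (SE 0.20, adjusted p = 0.93 by edgeR), and the homozygous effect in females less that in males was 0.22 (SE 0.47, adjusted p = 0.995 by edgeR).

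Markers of other cells were measured beside Lilra5. Of 7 monocyte markers, 4 were tested, and 3 of these had a higher fitted level in Homo-cKO against WT, with a median log2 fold change of 0.71 over the 4. The 1 that passed was the chemokine receptor Ccr2, which rose from 3.68 to 5.70 CPM in WT to 7.85 to 20.2 CPM in Homo-cKO mice (log2 fold change 1.28, SE 0.23, adjusted p = 0.00081 by edgeR). Summed over the list, monocyte markers stood at 7.06 to 14.4 CPM in WT and 12.3 to 27.8 CPM in Homo-cKO mice. Ly6c2 was low in every mouse, at no more than 0.076 CPM in WT and 1.02 CPM in Homo-cKO mice. The neutrophil markers, summed, ranged from 0 to 34.8 CPM in WT (median 6.31) and from 0 to 83.9 CPM in Homo-cKO mice (median 26.7). All 4 that were tested had a higher fitted level in Homo-cKO mice, with a median log2 fold change of 1.89, and none of them passed. None of the 7 border macrophage and 1 lymphocyte markers tested passed either. Mrc1, a border macrophage marker, is listed at 0 in every mouse, as are the immediate-early genes Btg2 and Ier5, for a reason not tested. The other border macrophage markers were detected, and the list summed to 8.86 to 34.4 CPM in WT and 7.81 to 40.9 CPM in Homo-cKO mice. Markers of brain cells that could be carried along were lower or did not pass, with 2 of 4 neuronal, 1 of 3 astrocyte and 2 of 3 oligodendrocyte markers lower and none higher. Once the mean of each genotype and sex was taken out, Lilra5 and Ccr2 had a Pearson r of 0.0055 over the 23 mice. In sorted bulk RNA a gene's lower or higher level in each cell cannot be told apart from a change in the number of cells that carry it, and the part of other cells in the rise of Lilra5 was not tested.

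By the same measure, Gm9825 (r = 0.78), Gm8909 (r = 0.77), Gm14292 (r = 0.74), Ccr6 (r = 0.74) and Ctsb (r = 0.74) followed Lilra5 most closely within genotype and sex among all genes tested, over the 23 mice. Without taking out the means of genotype and sex, the r of the 5 with Lilra5 was -0.36, -0.39, -0.33, -0.49 and 0.04 in the same order, against 0.72 for Clec4a3 and 0.76 for Ccr2. These values are a description, those with the means taken out being the highest of many in libraries that share a protocol and differ in depth. With the means taken out none of the other members was near them, with Clec4a3 at 0.38, Sirpa at 0.25, Cd200r1 at 0.24, Siglece at 0.10, Cd300a at 0.05, Pilra at -0.05 and Cd300lf at -0.35.

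The sequence before the start of Lilra5 is shown because the gene stands out in level, and those of Cd300lf and Cd300e because these neighbours were low in the same mice, as described below. Each line gives the 250 bases before the transcription start, read 5′ to 3′ on the gene's own strand, from RefSeq on GRCm38.p6. The positions are chr7:4237504-4237753 (plus strand) for Lilra5, chr11:115133993-115134242 (minus strand) for Cd300lf and chr11:115062040-115062289 (minus strand) for Cd300e. Capitals mark matches to 7 short motifs searched on both strands.
Lilra5: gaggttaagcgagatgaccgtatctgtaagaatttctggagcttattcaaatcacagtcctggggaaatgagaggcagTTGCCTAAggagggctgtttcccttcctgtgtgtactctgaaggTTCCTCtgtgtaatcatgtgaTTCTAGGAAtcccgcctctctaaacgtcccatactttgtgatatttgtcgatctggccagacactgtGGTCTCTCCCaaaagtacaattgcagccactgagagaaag
Cd300lf: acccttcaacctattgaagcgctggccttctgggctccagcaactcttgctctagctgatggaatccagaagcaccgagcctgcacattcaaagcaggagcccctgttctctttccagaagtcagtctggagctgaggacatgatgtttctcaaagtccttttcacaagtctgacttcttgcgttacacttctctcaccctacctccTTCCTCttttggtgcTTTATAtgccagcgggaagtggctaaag
Cd300e: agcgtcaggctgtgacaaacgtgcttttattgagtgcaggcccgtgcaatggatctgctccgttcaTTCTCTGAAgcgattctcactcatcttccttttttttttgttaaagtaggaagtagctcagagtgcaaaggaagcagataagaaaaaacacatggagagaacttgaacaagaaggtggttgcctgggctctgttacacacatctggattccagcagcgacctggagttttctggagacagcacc

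The motifs were PU.1 (GAGGAA, in 23.3% of 32851 RefSeq promoters of this length), NF-kB (GGGNNNNNCC, 45.8%), C/EBP (TTGCNNAA, 9.56%), GAS, the STAT site (TTCNNNGAA, 7.02%), AP-1 (TGANTCA, 6.75%), ISRE (GAAANNGAAA, 2.98%) and the TATA box (TATAAA, 12.4%). In the Lilra5 window the capitals are, in order, a C/EBP match, a PU.1 match on the reverse strand, a GAS match and an NF-kB match on the reverse strand. In the Cd300lf window they are a PU.1 match and a TATA match, both on the reverse strand, and in the Cd300e window a GAS match. A GAS match reads as a match on both strands. Of the 9 members 6 had an entry in the RefSeq table, and each of the 6 held a PU.1 match, Clec4a3 in 1 of its entries. Among these members a GAS match was found for Lilra5 alone and an ISRE match for Pilra alone.

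The row at the Lilrb4a locus, Gm49339, covers positions 51480612 to 51496613 of chromosome 10, across the annotated Lilr4b and Lilrb4a, and 96.6% of its 50-base stretches occur in other genes, chiefly Lilrb4a. Its reads can therefore not be assigned to Lilrb4a, an inhibitory receptor, or to its neighbour. It was measured at 1.91 to 3.90 CPM in WT (median 3.01), 2.15 to 6.57 CPM in Het-cKO (median 3.25) and 3.01 to 9.50 CPM in Homo-cKO mice (median 5.31). Of the 10 Homo-cKO mice 8 lay above every WT mouse, and the log2 fold change was 0.94 (SE 0.28, adjusted p = 0.026 by edgeR). Against the Het-cKO mice it was 0.51 (SE 0.26, adjusted p = 0.16 by edgeR), and between Het-cKO and WT it was 0.43 (SE 0.31, adjusted p = 0.77 by edgeR).

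Cd300lf, an inhibitory receptor for lipids such as ceramide and phosphatidylserine that is also known as the receptor of murine norovirus, lies on chromosome 11 (115116214 to 115133992, minus strand). It was even among WT mice, at 113.3 and 95.1 CPM in females F1 and F2 and 118.8, 120.5, 96.7 and 116.2 CPM in males M1 to M4, and stood at 90.1 to 118.9 CPM in Het-cKO mice. In the Homo-cKO mice it took either of 2 levels. Females F2 and F4 and male M1 had 119.2, 120.2 and 119.7 CPM, as high as the WT mice. The other 7 Homo-cKO mice, 3 females and 4 males, had 4.45 (F1), 1.12 (F3), 1.38 (F5), 2.33 (M2), 2.42 (M3), 6.50 (M4) and 2.15 (M5) CPM, below every WT and every Het-cKO mouse.

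**Figure D2:**
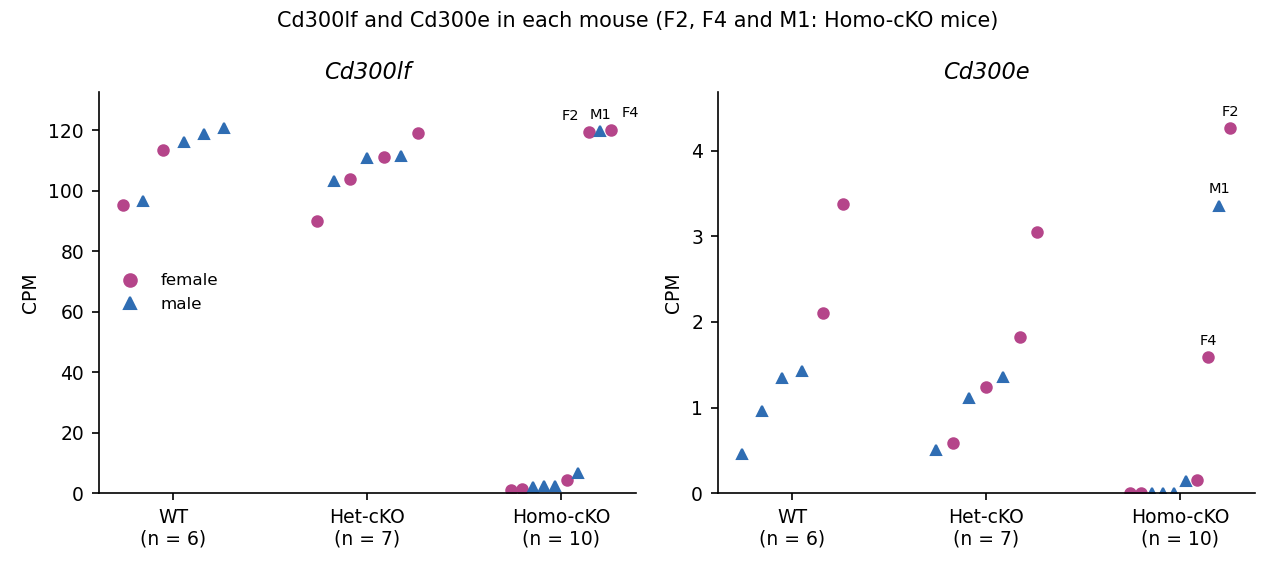
CPM of Cd300lf (left) and Cd300e (right) in each mouse by genotype, with circles for females and triangles for males. The Homo-cKO mice F2, F4 and M1 lie at 119.2 to 120.2 CPM for Cd300lf, and the 7 others at 1.12 to 6.50 CPM, and the same 3 mice hold the highest Cd300e values of their group.

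The 3 higher Homo-cKO mice had 1344 to 1998 reads of Cd300lf and the 7 lower ones 16 to 89 reads. The lower mice came from both number ranges, with 4 of 03xx and 3 of 04xx, and the higher ones too, with 2 of 03xx and 1 of 04xx. Fos did not divide the mice in this way, since F2 and M1 (high in Fos) and F4 (0.915 CPM of Fos) shared the higher level. Of the gene's 50-base stretches, 2.44% occur in other genes, mostly of its own family. It lies within the span of Rab37 on the opposite strand, which was at 0 to 1.95 CPM (0 to 32 reads) in Homo-cKO mice. Rab37 stood at 0.515 to 1.42 CPM in WT and 0.253 to 1.79 CPM in Het-cKO mice. Homo-cKO mice F2, F4 and M1 had 0.710, 1.95 and 0.659 CPM of it, and F1 and F5 had 0.829 and 1.23 CPM. Below every WT mouse were F3 (0.350), M2 (0.291), M3 (0.135), M4 (0.438) and M5 (0). At so few reads, whether Rab37 divides the mice as Cd300lf does was not tested.

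A group mean describes such values poorly. The log2 fold change of Cd300lf in Homo-cKO against WT was -1.64 (SE 0.76, 95% confidence interval -3.20 to -0.07, adjusted p = 0.16 by edgeR) and did not pass, whereas limma-voom gave -3.70 with an adjusted p of 0.00048. Without Homo-cKO mouse M1 edgeR gave -2.69 (adjusted p = 0.033), and without the 4 mice high in Fos -2.73 (adjusted p = 0.033). Over 34 alternative settings the value lay between -3.70 and -1.40 and passed in 3. In Het-cKO against WT it was -0.12 (SE 0.81, adjusted p = 0.98 by edgeR).

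Cd300e, an activating receptor of monocytes and the neighbour on the same strand, with 54.0 kb between the genes, was low in the same mice. It had 4.26, 1.59 and 3.35 CPM in Homo-cKO mice F2, F4 and M1, 0.151 CPM in F1 and 0.145 CPM in M2 (2 reads each), and no read in the other 5, where 3 reads would be 0.203 to 0.221 CPM. WT mice ranged from 0.456 to 3.37 CPM and Het-cKO mice from 0.507 to 3.05 CPM. At this level the fit found no difference that passed (log2 fold change -0.82, SE 0.85, adjusted p = 0.58 by edgeR). The gene was picked for this description after its values were seen.

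**Figure D3:**
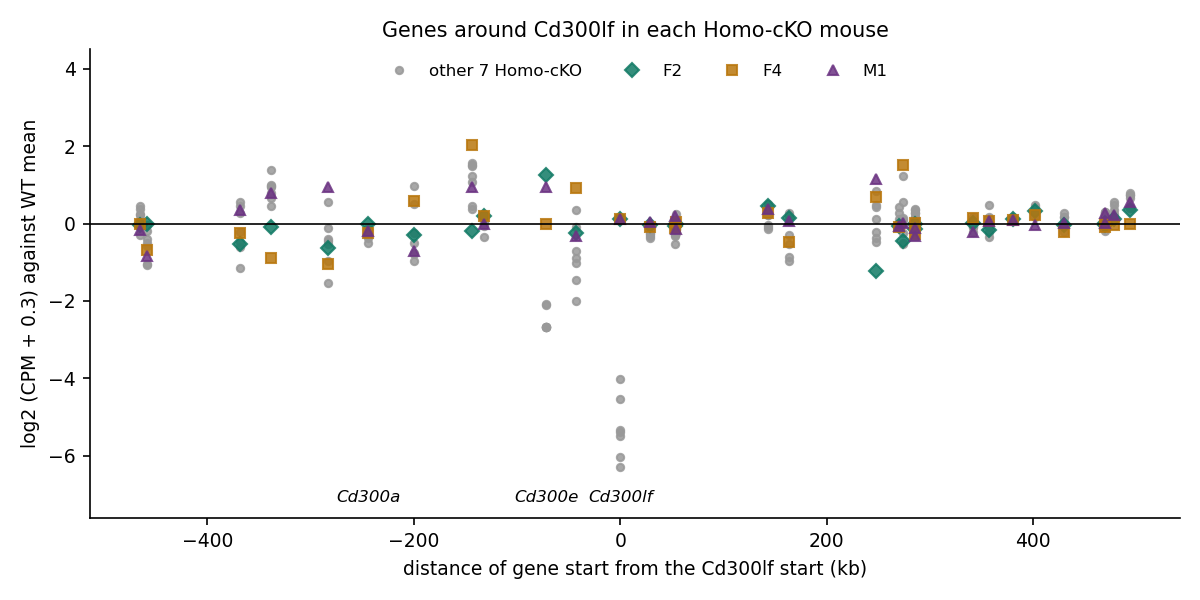
The 31 genes within 500 kb of Cd300lf, itself among them, that had a mean of at least 0.3 CPM over all mice. They are placed by the distance of their start from the Cd300lf start in kb, with the log2 ratio of each Homo-cKO mouse to the WT mean, 0.3 CPM added to both. Mice F2, F4 and M1 have their own symbols and the other 7 are grey, and the grey points drop at Cd300lf and Cd300e.

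The further genes of the CD300 cluster did not divide the Homo-cKO mice in this way. Cd300c2, a family member 114.3 kb from Cd300lf, stood at 382.9, 388.6 and 334.0 CPM in F2, F4 and M1 and between 267.5 and 385.5 CPM in the other 7. Slc9a3r1, 29.3 kb away on the other side, was at 51.7 to 56.5 CPM in the 3 mice and 41.9 to 53.0 CPM in the other 7. The cause of the low Cd300lf values was not tested.

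Cd300a, an inhibitory receptor of the same cluster (114890041 to 114904654, plus strand) that binds phosphatidylserine and phosphatidylethanolamine, was lower in Homo-cKO microglia. It ranged from 295.9 to 367.1 CPM in WT (median 332.7), 282.1 to 358.8 CPM in Het-cKO (median 331.3) and 235.7 to 332.1 CPM in Homo-cKO mice (median 294.7). The groups overlapped, with 5 of 10 Homo-cKO mice below every WT mouse. Against WT its log2 fold change in Homo-cKO mice was -0.24 (SE 0.07, adjusted p = 0.019 by edgeR), a smaller difference than the 1.5-fold threshold. It did not pass without WT mouse M1 (adjusted p = 0.071), without the sex term (0.051), with total counts as the only scaling (-0.14, 0.091) or with the 03xx mice alone (-0.17, 0.13). Against Het-cKO it was -0.13 (SE 0.06, adjusted p = 0.13 by edgeR).

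Sirpa, whose product SIRPα receives the CD47 signal that restrains phagocytosis, was the most abundant member per kilobase of transcript and fell in Homo-cKO microglia. It ranged from 3303 to 5126 CPM in WT (median 4156), 3175 to 4530 CPM in Het-cKO (median 4060) and 2727 to 3570 CPM in Homo-cKO mice (median 3128). Of the 10 Homo-cKO mice 8 lay below every WT mouse, and males M1 and M3 reached into the WT range. Sirpa had a log2 fold change of -0.43 (SE 0.09, adjusted p = 0.0021 by edgeR) against WT and -0.34 (SE 0.08, adjusted p = 0.0047 by edgeR) against Het-cKO, both under the 1.5-fold threshold. The value against WT passed in 34 of 34 alternative settings, from -0.48 to -0.32, among them the 03xx mice alone (-0.40) and the 04xx mice alone (-0.48).

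Most microglial markers moved in the same direction. Of 10, 5 were lower in Homo-cKO against WT at an adjusted p below 0.05 by edgeR (7.09% of all genes) and none was higher. The other 5 did not pass, and 1 of the 10 had a positive log2 fold change. The median was -0.23 over the list against 0.01 over all genes tested. The sorting marker Itgam (CD11b) fell by 0.61 on the log2 scale (SE 0.11, adjusted p = 0.00079 by edgeR). Whether the fall of Sirpa is apart from that of these genes was not tested.

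Cd200r1, the receptor of CD200, whose tail recruits Dok adaptors and not SHP phosphatases, did not pass in any comparison. It ranged from 22.5 to 28.7 CPM in WT (median 24.0), 16.02 to 31.5 CPM in Het-cKO (median 25.9) and 19.2 to 40.5 CPM in Homo-cKO mice (median 28.4). The log2 fold change in Homo-cKO against WT was 0.12 (95% confidence interval -0.14 to 0.39, adjusted p = 0.59 by edgeR). In Homo-cKO mice the 5 females had 27.6 to 40.5 CPM and in WT mice the 2 females had 22.5 and 22.9 CPM, against 19.2 to 29.5 CPM and 23.7 to 28.7 CPM in the males. The homozygous effect in females less that in males was 0.53 (SE 0.25), with an unadjusted p of 0.044 and an adjusted p of 0.96 by edgeR.

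Siglece, an inhibitory receptor for sialic acids, had overlapping ranges in the 3 genotypes. It ranged from 125.3 to 161.6 CPM in WT (median 139.0), 114.3 to 163.5 CPM in Het-cKO (median 131.1) and 122.6 to 158.2 CPM in Homo-cKO mice (median 139.1). Homo-cKO against WT mice gave a log2 fold change of -0.04 (95% confidence interval -0.21 to 0.12, adjusted p = 0.79 by edgeR), an interval within the 1.5-fold threshold on both sides.

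Clec4a3, a C-type lectin receptor of the DCIR group, stood a little higher in Homo-cKO mice. It ranged from 99.5 to 113.4 CPM in WT (median 104.4), 81.95 to 111.9 CPM in Het-cKO (median 100.8) and 102.0 to 153.8 CPM in Homo-cKO mice (median 119.6), and 6 of 10 Homo-cKO mice lay above every other mouse. Clec4a3 passed against Het-cKO, with a log2 fold change of 0.29 (SE 0.08, adjusted p = 0.0093 by edgeR), but not against WT, with 0.21 (SE 0.08, adjusted p = 0.099 by edgeR). With total counts as the only scaling it passed against WT as well (0.31, adjusted p = 0.012).

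Pilra, an inhibitory receptor for sialylated O-glycans, had a like order of groups. It ranged from 19.9 to 27.6 CPM in WT (median 24.0), 16.9 to 26.9 CPM in Het-cKO (median 23.6) and 20.8 to 44.0 CPM in Homo-cKO mice (median 27.6). Against Het-cKO it passed at a log2 fold change of 0.36 (SE 0.13, adjusted p = 0.048 by edgeR), and it did not against WT, at 0.27 (SE 0.14, adjusted p = 0.21 by edgeR). The 4 Homo-cKO mice of 04xx had 28.3 to 44.0 CPM and the 6 of 03xx 20.8 to 31.1 CPM, and the value against WT was 0.55 (adjusted p = 0.021) with the 04xx mice alone and 0.04 (adjusted p = 0.89) with the 03xx mice alone. Without the 4 mice high in Fos, all of 03xx, it was 0.46 (adjusted p = 0.026 by edgeR). That setting keeps all 4 mice of 04xx, so it is not separate from the value with these mice alone. Without Homo-cKO mouse M4 the value against WT was 0.17 (adjusted p = 0.40 by edgeR). The difference between the ranges was not tested. Of its 50-base stretches 20.8% occur in other genes, mainly in Zcwpw1, which overlaps it on the opposite strand. Zcwpw1 reached 38.2 CPM in its highest mouse. The counting is not stated to use strand, and the part of Zcwpw1 reads in the Pilra values was not tested.

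**Figure D4:**
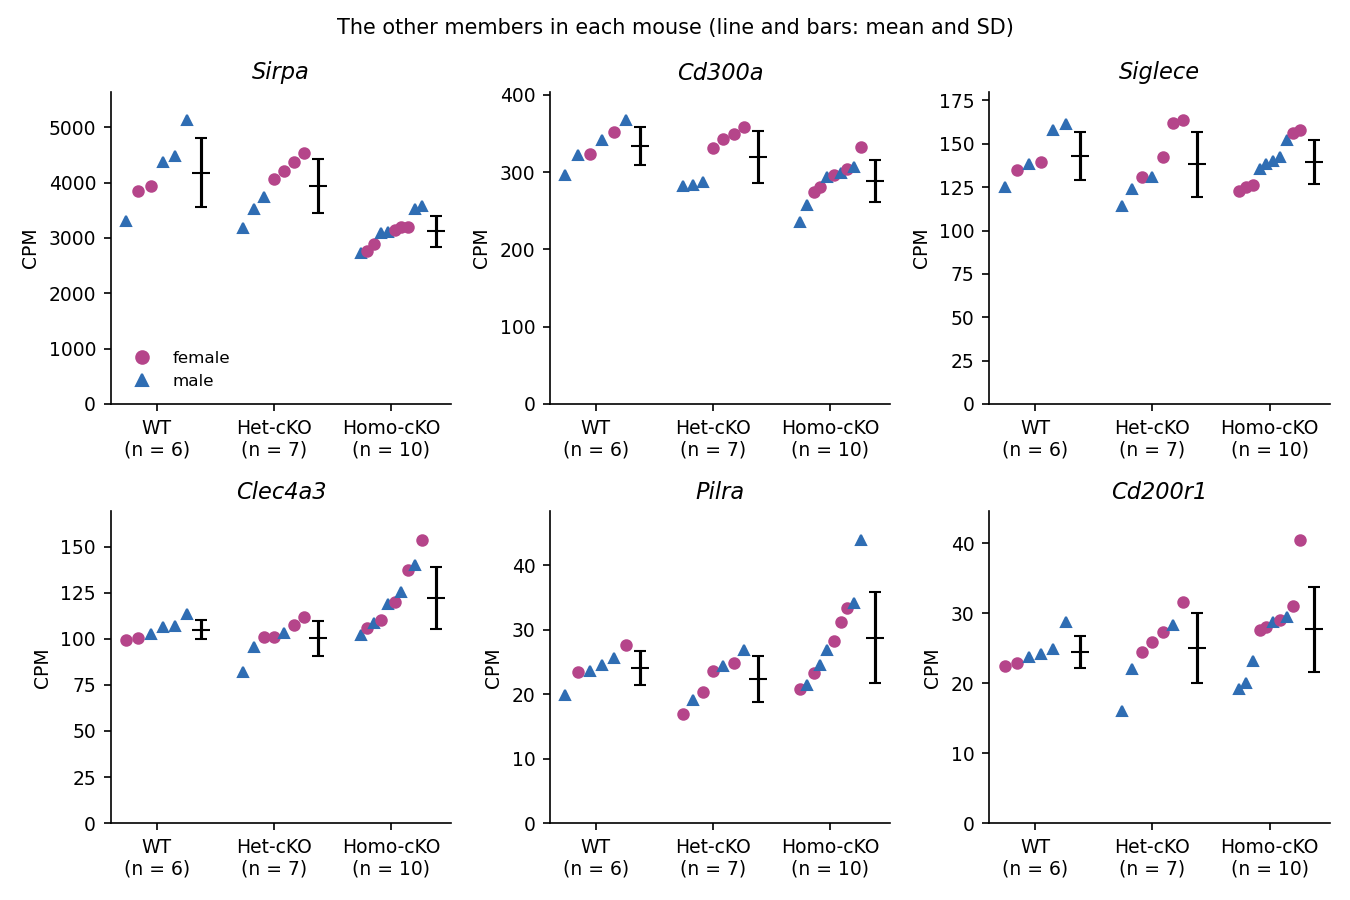
CPM of the 6 other members in each mouse by genotype, with circles for females, triangles for males and the mean and SD of each group as a line with bars. Sirpa and Cd300a sit lower in Homo-cKO mice, Clec4a3 and Pilra reach higher, and the groups overlap in all 6.

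Per kilobase of the longest annotated coding transcript, the order of levels in WT microglia was Sirpa (1049 ± 156.6 CPM per kb, SD, n = 6), Clec4a3 (80.7 ± 3.95), Siglece (77.3 ± 7.61), Cd300a (71.9 ± 5.41), Cd300lf (58.4 ± 5.99), Cd200r1 (12.9 ± 1.19), Pilra (9.35 ± 1.01) and Lilra5 (2.80 ± 0.644). Clec4a3, Siglece and Cd300a overlapped in their ranges over the WT mice, and the ranges of Cd300a (63.7 to 79.0) and Cd300lf (50.4 to 63.9) also met. Sirpa, Cd200r1, Pilra and Lilra5 each lay apart from their neighbours in every WT mouse. In Homo-cKO mice Lilra5, at 10.6 ± 4.02 CPM per kb (SD, n = 10), reached the level of Pilra, at 11.2 ± 2.76 CPM per kb.

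Taking all comparisons, 1 of the 8 measured members was called between Homo-cKO and WT, namely Lilra5, with calls made above 1.5-fold and below 0.05 for the adjusted p, beside 3.4% of the 12908 genes tested. That Lilra5 is among the calls follows from its choice. At the adjusted p alone, 1 member was higher, again Lilra5 (5.66% of all genes), and 2 were lower, Sirpa and Cd300a (7.09%). The median log2 fold change was 0.04 over the 8 members and 0.01 over all genes. Of all genes called, 213 were higher and 226 lower with TMM scaling, and 347 and 168 with total counts alone, under which the member called was the same.

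Against Het-cKO mice, with the Homo-cKO mice shared between the comparisons, 1 member was called (6.62% of all genes), again Lilra5. Its place in this count and the next follows from its choice and is no test. At the adjusted p alone, 3 were higher (11.1%), Clec4a3, Pilra and the chosen Lilra5, and 1 was lower (11.7%), Sirpa. Between Het-cKO and WT, 0 of 8 members and 0 of 12908 genes (0%) passed by edgeR, with none of the members and 998 of all genes at an unadjusted p below 0.05, and DESeq2 and limma-voom called 0 genes. The members' values of log2 fold change in this comparison lay between -0.12 and -0.03.

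**Figure D5:**
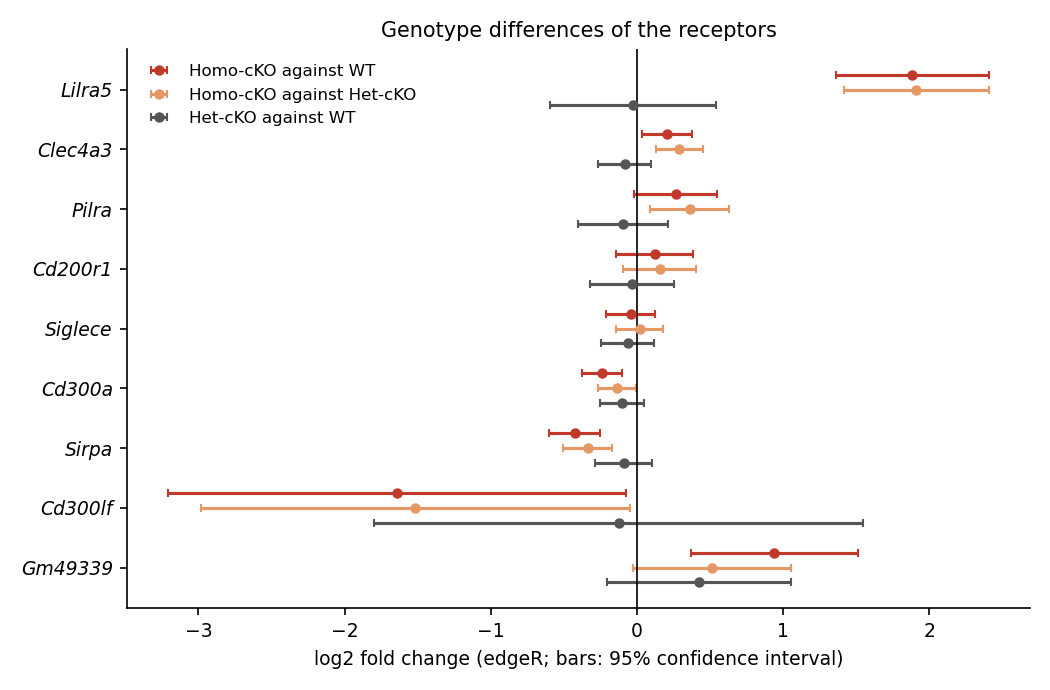
Log2 fold changes (points) with 95% confidence intervals (bars) by edgeR for the 8 measured members and Gm49339 in 3 genotype comparisons. Lilra5 stands at 1.88 and 1.91 in the comparisons of Homo-cKO mice, Sirpa and Cd300a lie left of 0 against WT, the interval of Cd300lf is the widest, and the Het-cKO intervals all cover 0.

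Females and males differed in 9 genes (0.0697%) and in 0 of 8 members by edgeR, with 2 members and 752 of all genes at an unadjusted p below 0.05. These were Cd300a, higher in females by 0.14 on the log2 scale (SE 0.05, adjusted p = 0.84 by edgeR), and Cd200r1, higher by 0.23 (SE 0.10, adjusted p = 0.85 by edgeR). The homozygous effect differed between the sexes in 0 of 8 members and 0 genes (0%) by edgeR, with 1 member and 644 of all genes at an unadjusted p below 0.05. DESeq2 called 1 gene, not a member, and limma-voom 0.

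Of 44 other receptors of the member families, 18 had enough counts to be tested between Homo-cKO and WT. At an adjusted p below 0.05 by edgeR, 3 were higher (5.66% of all genes) and 0 lower (7.09% of all genes), with a median log2 fold change of -0.06. Cd22, an inhibitory sialic acid receptor, rose by 0.97 (SE 0.24, adjusted p = 0.0093), and Clec4a1, a relative of Clec4a3, rose by 0.71 (SE 0.23, adjusted p = 0.040). The third, Cd33, named after its value was seen, rose by 0.21 (SE 0.06, adjusted p = 0.026), below the fold threshold.

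Among 29 further paired or ITIM- and ITAM-linked receptors of myeloid cells, 21 were tested, of which 2 were higher and 5 lower at the adjusted p alone, beside 5.66% and 7.09% of all genes, with a median of 0.01. Fcgr4, an activating Fc receptor, rose by 1.39 (SE 0.33, adjusted p = 0.0075 by edgeR). Klra2, an inhibitory lectin-like receptor, rose from 0 to 0.150 CPM in WT to 0.202 to 1.82 CPM in Homo-cKO mice (adjusted p = 0.0028 by edgeR), a level too low for a firm fold change. The 5 lower ones, named after their values were seen, were Trem2 (-0.48), Pecam1 (-0.49), Ceacam1 (-0.46), Vsir (-0.44) and Fcgr1 (-0.34), each below the fold threshold.

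The adaptors, kinases and phosphatases that these receptors share were all measured, 28 of 28, and none was called, beside 3.4% of all genes. At the adjusted p alone 1 was higher (5.66% of all genes), the adaptor Lcp2 (0.25), and 2 were lower (7.09% of all genes), Plcg2 (-0.35) and Vav1 (-0.25), these 3 being named after their values were seen, and the list's median was 0.04. The 2 of highest mean CPM over the 23 mice, the kinase Lyn (-0.09, SE 0.07, adjusted p = 0.44 by edgeR) and the phosphatase Inpp5d, which encodes SHIP (-0.03, SE 0.08, adjusted p = 0.84), did not pass. Tyrobp, the adaptor DAP12, was close to Inpp5d in level, with means of 1080 and 1066 CPM in WT, and had a log2 fold change of -0.03 (SE 0.07, adjusted p = 0.84 by edgeR). Fcer1g, the Fc receptor gamma chain with which LILRA5 pairs, was named for that role and stood at 0.11 (SE 0.07, adjusted p = 0.33 by edgeR).

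Of 21 ligands and enzymes that make or remove sialic acid ligands, 17 were tested, with 0 higher (5.66% of all genes), 2 lower (7.09% of all genes) and a median of -0.16. The chaperone Calr, a surface signal for phagocytosis and one of the 2 of highest level, fell by 0.32 (SE 0.08, adjusted p = 0.011 by edgeR), and the sialyltransferase St3gal2, named after its value was seen, fell by 0.38 (SE 0.07, adjusted p = 0.0014 by edgeR). Apoe, the other of highest level, had a log2 fold change of 0.05 (SE 0.18, adjusted p = 0.91) by edgeR. These are levels in the sorted microglia, not in the neurons that present CD47 and CD200.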

How the data were processed

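RNA of FACS-sorted microglia was measured in 23 mice. The authors used OmicSoft OSA4 to align single-end reads of 50 bases (mm10, gene model of Ensembl release 84), and RSEM, also named in the submitters' processing notes, to estimate counts. The deposited table gives RSEM's expected counts per gene and mouse, scaled neither by depth nor by length, for 43411 genes. They were rounded here to whole numbers. A strand setting is not given in the sources used here. Of the identifiers, 42929 were matched to GENCODE vM21 (GRCm38) and 482 were not. Since nothing identifies litters or processing days, p-values measure the spread between mice as sampled.

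Genes were kept by filterByExpr with genotype as the group, scaled by TMM and tested with edgeR 4.0.16 (R 4.3.3, quasi-likelihood test, 3 genotypes and sex in 1 fit, Benjamini-Hochberg adjustment over the 12908 genes tested). Calls needed more than a 1.5-fold difference and an adjusted p under 0.05. The sex difference of the homozygous effect used a fit of genotype by sex. For correlations, log2 CPM had a prior count of 2. The pipeline was tested on simulated counts. Named were all members, genes called from the fixed lists (or the 2 of highest level) and the 5 genes most like Lilra5, and other list genes named in the text were chosen after their values were seen. Members and lists were chosen with earlier results of these data known.

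Alternatives were DESeq2 1.42.0, limma-voom (limma 3.58.1), 2 other scalings, 2 other count filters, a fit of only the groups compared, a fit with sex left out, each animal-number range of the Homo-cKO mice, the Homo-cKO mice without the 4 highest in Fos, no fold threshold, and each mouse left out. At 10812969 to 16734846 counts per mouse, genes of a few CPM rest on few reads, and 3 counts were taken as the floor of a library, for counting error only. Figures were drawn with matplotlib in Python.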

Additional observations from a re-analysis of the deposited data

Results flagged for a closer look

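In 24 combinations of member and genotype, 1 held a mouse far from the others of its group, and about 1 in 20 such groups would do so by chance. Lilra5 stood at 8.55 CPM in WT male M1, against 5.93 CPM in the next highest WT mouse, a gap of 0.704 of the group's whole range where 0.625 is the critical value. It lies below every Homo-cKO mouse. Without this mouse the log2 fold change of Lilra5 in Het-cKO against WT turned from -0.03 to 0.11, and neither value passed.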

How the results depend on the processing

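The number of members called between Homo-cKO and WT was 1, and became 2 with limma-voom and without the 4 Homo-cKO mice highest in Fos, Cd300lf being added each time, and 3 without the fold threshold. Against Het-cKO it was 1, and became 2 with limma-voom, with the 04xx mice alone and without the 4 mice highest in Fos, and 4 without the fold threshold. With each mouse left out, both counts ranged from 1 to 2, the 2 arising without Homo-cKO M1. The counts of 0 for Het-cKO against WT, sex and the sex difference of the homozygous effect held in all 32, 30 and 31 settings run. The log2 fold change of Lilra5 in Homo-cKO against WT ranged from 1.69 to 2.10 over 34 settings. Siglece in Homo-cKO against WT changed sign to 0.061 with total counts alone, which moved the median of all genes by 0.0984. In Het-cKO against WT, Lilra5 changed sign to 0.040 (limma-voom), 0.0055 (total counts) and 0.052 (no sex term), and ranged from -0.14 to 0.11 with each mouse left out. Cd200r1 changed sign to 0.00016 (total counts), 0.036 (no sex term) and 0.0045 (these groups alone), and ranged from -0.12 to 0.050 with each mouse left out. None of these values passed, and the cause was not tested. No paired analysis was possible because the labels give each mouse its own animal number and no replicate number that groups share, and names such as F1 and M1 only count the mice of a group. Depth limits what Cd300e, Klra2 and Gm49339 can show, at a few CPM or less.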

Other observations

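Within the Het-cKO group, the sexes lay apart for some members and also for microglial genes that are no members, none of the 8 members tested having passed the test of sex over all genotypes. Sirpa stood at 4060 to 4530 CPM in the 4 Het-cKO females and 3175 to 3741 CPM in the 3 males, whereas in WT mice the 2 females, at 3858 and 3945 CPM, lay within the range of the males (3303 to 5126 CPM). Cd300a stood at 331.3 to 358.8 CPM in the Het-cKO females and 282.1 to 287.6 CPM in the males, and at 295.9 to 367.1 CPM in the WT males. The row Gm49339 stood at 3.25 to 6.57 CPM in the Het-cKO females and 2.15 to 3.04 CPM in the males. Among genes that are no members, Csf1r stood at 15412 to 17362 CPM in the Het-cKO females and 11954 to 14037 CPM in the males, and Itgam at 1970 to 2156 CPM and 1436 to 1693 CPM. These patterns were noticed in the data, and a sex difference within the Het-cKO group was not tested.

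Among the other receptors that were called, the rises of Fcgr4 and Cd22 were uneven between Homo-cKO mice. Fcgr4 ranged from 5.61 to 35.0 CPM in Homo-cKO against 4.18 to 6.18 CPM in WT mice. Cd22 ranged from 7.35 to 26.3 CPM against 4.77 to 10.6 CPM, and Clec4a1 from 2.63 to 5.59 CPM against 1.69 to 3.27 CPM. Their ranges overlapped with WT, with 9 (Fcgr4), 7 (Cd22) and 9 (Clec4a1) of the 10 Homo-cKO mice above every WT mouse. Klra2 did not overlap with WT, at 0.202 to 1.82 CPM in Homo-cKO and at most 0.150 CPM in WT mice. The gap is small in reads, with 3 in the lowest Homo-cKO mouse and 2 in the highest WT mouse. Het-cKO mice had 0 to 1.19 CPM, and Het-cKO M1, with 14 reads, lay within the Homo-cKO range.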
